A study of Mus musculus with 2 samples.

Results

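The Hox genes of clusters A to D encode homeodomain transcription factors that pattern the body axis, and the present account covers those read by the array in bone marrow KSL cells. Members were the genes whose probe sets carry exactly 1 gene symbol of the Hoxa, Hoxb, Hoxc or Hoxd series. This rule found 37 of the 39 genes of the 4 clusters, among 19938 named genes in all. Each of the 37 had 1 probe set. Hoxb8 was represented through a probe set shared with Hoxb7 and has no value of its own, and the remaining gene was not analysed here. The measured genes were 10 of cluster A, on mouse chromosome 6, 9 of cluster B, on chromosome 11, 9 of cluster C, on chromosome 15, and 9 of cluster D, on chromosome 2.

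In mammals the Hox genes of a cluster lie in a row, numbered by paralogue position from 1 to 13, and genes with the same number in different clusters are copies of a shared ancestral gene. In blood formation, genes of clusters A and B are known to be active in stem and early progenitor cells and to be shut down as cells mature. HOX proteins bind DNA together with TALE partners of the PBX and MEIS families. The MLL and menin complex keeps Hox genes active, and Polycomb complexes keep them silent.

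The study used 1 array for marrow KSL cells of Nrf2 knockout (Nrf2-/-) mice and 1 for those of wild-type (Nrf2+/+) mice. KSL cells carry c-Kit and Sca-1, lack markers of mature lineages, and are enriched for haematopoietic stem cells. Both groups were young healthy C57BL/6J mice of 8 to 10 weeks, with no treatment named, and each RNA was a pool from 5 mice. Nrf2 is the protein name of the gene Nfe2l2, a redox-sensitive transcription factor.

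Values are log2 intensities, and differences are given as knockout minus wild type on that scale. With 1 array per genotype there is no replicate check and no test, and differences were read by size. A probe-set error (SD) of 0.32 per difference (0.18 when estimated robustly) came from the differences of 555 genes with exactly 2 probe sets. All 555 had a mean above the signal limit described below. This error leaves out the spread between mice, sorts and amplifications. Nfe2l2 itself read 9.07 in knockout cells, against 9.16 in wild-type cells. The deleted part of the gene is not named in the labels, so this value does not check the genotype. Of the KSL markers listed, Kit read 11.21 in knockout cells, against 10.93 in wild-type cells. Cd34 read 11.43 in knockout cells, against 11.29 in wild-type cells. Ly6a, which encodes Sca-1, was not analysed here. Among the lineage markers, Cd4, Cd8a, Ms4a1, Cd79a and Ly6g had mean signals below the signal limit, whereas Cd3e and Itgam were above it. Of these 7 lineage markers only Itgam passed 1.5-fold, with a difference of −0.95, or 1.93-fold lower in the knockout array. The shares over all named genes were 1.74% higher and 3.15% lower by 1.5-fold or more. Cd79a differed by −0.55 and Ly6g by 0.51. All 12 listed neutrophil markers were lower by 1.5-fold or more in the knockout array, with a median difference of −1.63, and their part in any Hox value was not tested. A pool with fewer cells of a type cannot be told apart from less RNA per cell.

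The Hox genes with signal above a limit set from genes taken as silent all belonged to clusters A and B. To judge signal, 1015 olfactory receptor genes, which marrow cells are not known to use, were taken as silent. Their 95th percentile of the mean of both arrays, 6.13, was set as the limit. The highest olfactory receptor mean was 8.89, so every Hox mean lay within their full range. Over all named genes, 58.0% exceeded it. Of the Hox genes, 12 of 37 did: 7 of 10 in cluster A, 5 of 9 in cluster B, 0 of 9 in cluster C and 0 of 9 in cluster D. The lowest gene above the limit was Hoxb7, with a mean of 6.40, and the highest gene below it was Hoxd10, at 6.11. The limit describes signal and is not a test of detection. Different probe sets bind with different strength, so the order of signals is not an order of transcript amounts.

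**Figure D1:**
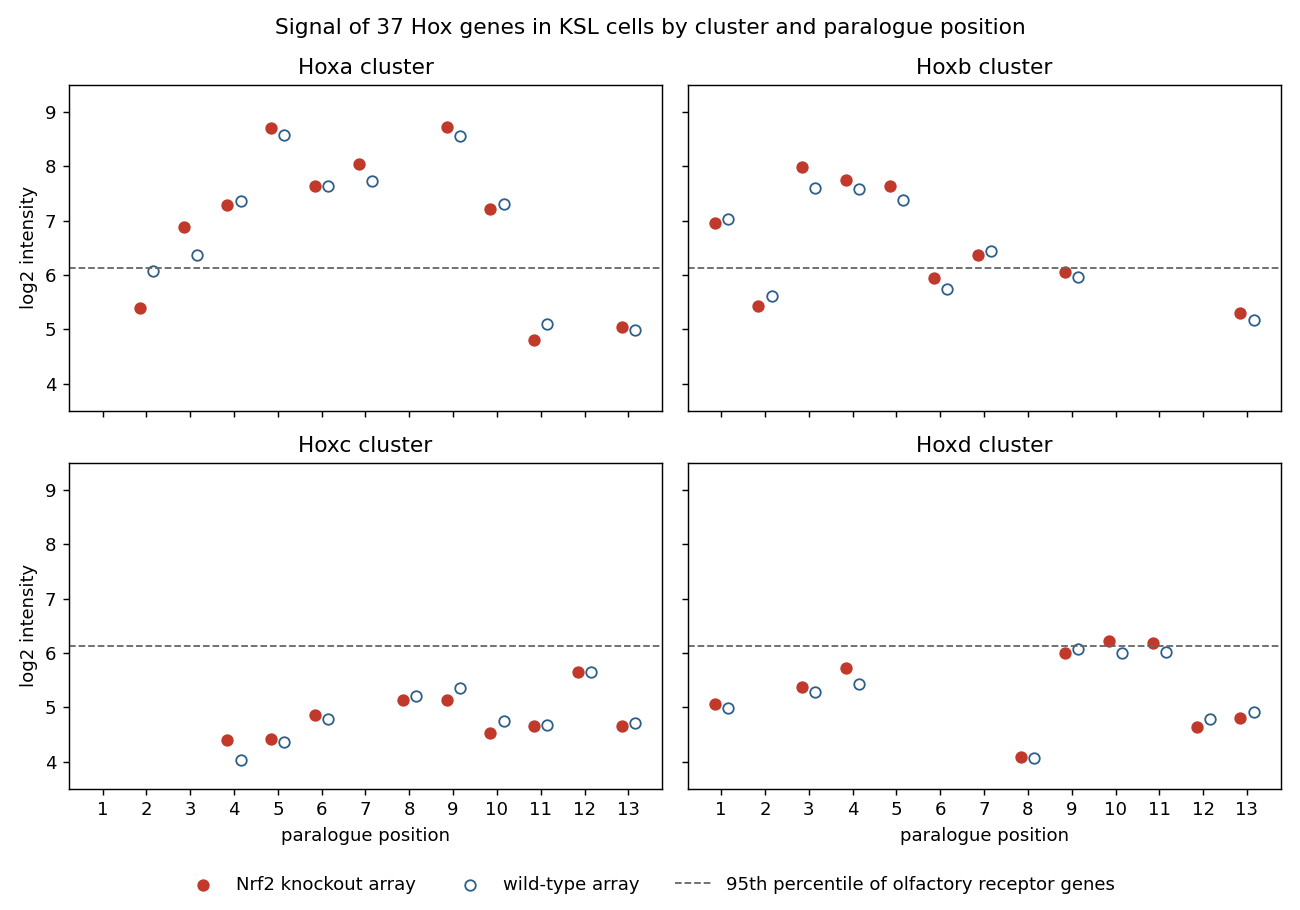
Log2 intensity (vertical axis) of each of the 37 Hox genes against paralogue position 1 to 13 (horizontal axis), in 1 panel per cluster, with filled points for the Nrf2 knockout array, open points for the wild-type array and a dashed line at 6.13. Genes of clusters A and B stand above the line mainly at central positions, and the means of all genes of clusters C and D lie below it.

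Genes known from stem cell work were among those with signal. Hoxa9, which is needed for normal stem cell function in mice and drives leukaemia when overexpressed, read 8.72 in knockout cells, against 8.56 in wild-type cells. Hoxa5, at position 5 of the same cluster, read 8.70 in knockout cells, against 8.57 in wild-type cells. Hoxa7, also a target of MLL fusion proteins in leukaemia, read 8.04 in knockout cells, against 7.72 in wild-type cells. Hoxa10, a regulator of stem and myeloid progenitor cells, read 7.22 in knockout cells, against 7.31 in wild-type cells. For these 4 genes the arrays lay within 0.32 of each other, and Hoxa10 alone of the 4 had the lower value in the knockout array.

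The remaining genes of cluster A above the limit were Hoxa3, Hoxa4 and Hoxa6. Hoxa3, a patterning gene of the pharynx and thymus, read 6.88 in knockout cells, against 6.37 in wild-type cells. Hoxa4 read 7.29 in knockout cells, against 7.36 in wild-type cells. Hoxa6 had the value 7.64 in both arrays. Hoxa2, Hoxa11 and Hoxa13 were below the limit, so the genes of cluster A with signal formed an unbroken run over the measured positions 3 to 10.

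In cluster B the genes with signal included Hoxb4, whose overexpression expands stem cells, at 7.74 in knockout cells, against 7.58 in wild-type cells. Hoxb3, which acts together with Hoxb4 in stem cell proliferation, read 7.99 in knockout cells, against 7.60 in wild-type cells. Hoxb5, a marker of long-term stem cells in mice, read 7.64 in knockout cells, against 7.38 in wild-type cells. These 3 genes were above the limit in both arrays and had the higher value in the knockout array.

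Hoxb1, known for patterning the hindbrain, read 6.97 in knockout cells, against 7.04 in wild-type cells. Hoxb7 read 6.37 in knockout cells, against 6.44 in wild-type cells. The genes of cluster B with signal therefore did not form an unbroken run, since Hoxb2 and Hoxb6 lay below the limit. Hoxb2, another hindbrain gene, read 5.43 in knockout cells, against 5.61 in wild-type cells, and Hoxb6 read 5.94 in knockout cells, against 5.75 in wild-type cells. Hoxb9 and the prostate gene Hoxb13 were below it too, with means of 6.01 and 5.23.

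Cluster C lay well inside the olfactory receptor range, between 4.40 and 5.64 in knockout cells, against 4.02 and 5.64 in wild-type cells. The gene with the highest mean was Hoxc12, with equal values in both arrays, and the gene with the lowest was Hoxc4. Cluster D lay between 4.09 and 6.22 in knockout cells, against 4.07 and 6.08 in wild-type cells. Hoxd9, Hoxd10 and Hoxd11, limb patterning genes, had means of 6.04, 6.11 and 6.10, just under the limit. Hoxd10 and Hoxd11 exceeded 6.13 in the knockout array alone. Hoxd10 read 6.22 in knockout cells, against 6.00 in wild-type cells, and Hoxd11 6.18 in knockout cells, against 6.02 in wild-type cells. With a limit at the 90th percentile of olfactory receptor genes, 5.67, these 3 genes of cluster D would count as having signal, with Hoxa2, Hoxb6 and Hoxb9, and 18 of 37 genes would. With the 99th percentile, 6.81, Hoxa3 and Hoxb7 would drop out and 10 would remain. Clusters A and B held every gene above the limit at the 95th and 99th percentiles, and cluster C held 0 at all 3.

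**Figure D2:**
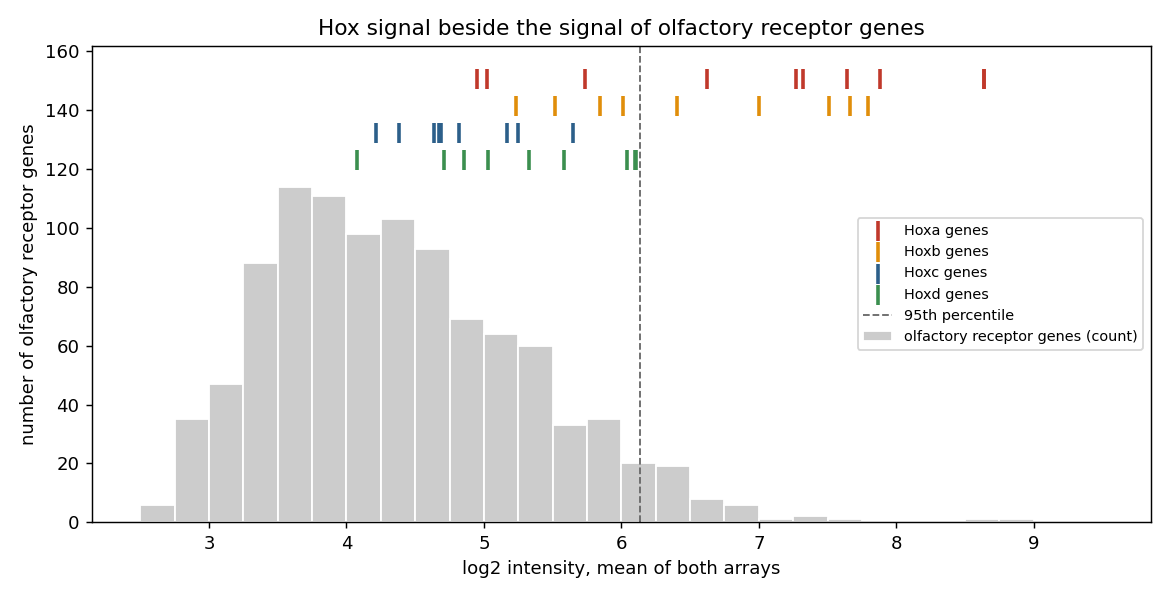
Histogram of the mean log2 intensity of 1015 olfactory receptor genes (grey, vertical axis as number of genes) with the mean of each Hox gene as a tick in 1 row per cluster, and the 95th percentile as a dashed line at 6.13. The ticks of clusters C and D lie among the olfactory receptor genes, and those of clusters A and B spread on both sides of the line.

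The share of genes with signal was also counted by paralogue position. Of the genes at positions 4 to 8, 7 of 14 were above the limit, and within clusters A and B 7 of 8 were, the exception being Hoxb6. Of the genes at positions 1 to 3, 3 of 7 were above it, namely Hoxa3, Hoxb1 and Hoxb3. Of the genes at positions 9 to 13, 2 of 16 were, namely Hoxa9 and Hoxa10. With the limit at the 90th percentile of the olfactory receptor genes, the shares at positions 4 to 8 and 1 to 3 were equal, with 8 of 14 and 4 of 7 genes above it, and 6 of 16 genes at positions 9 to 13 were. At positions 11, 12 and 13 no measured gene of any cluster exceeded the 95th percentile limit. Genes at the same position differed by cluster: at position 9, Hoxa9 had a mean of 8.64, against 6.01 for Hoxb9, 5.25 for Hoxc9 and 6.04 for Hoxd9, each on its own probe set. Only genes of clusters A and B had signal at position 4, with means of 7.32 for Hoxa4 and 7.66 for Hoxb4, against 4.21 for Hoxc4 and 5.58 for Hoxd4. The sequences of the probes were not used here, and whether probe sets of paralogues bind each other's transcripts was not tested.

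The second comparison asked whether Hox genes were at other levels without NRF2. Most of the 37 lay below the signal limit, where the size of a difference is less sure. Of the 37 genes, 0 were higher by 1.5-fold or more and 1 was lower by that size in the knockout array. Over all named genes, 1.74% were higher and 3.15% lower by 1.5-fold or more, so the Hox counts lay near the background. No Hox gene differed by 2-fold in either direction, against 0.311% of all named genes higher and 0.602% lower. The median difference over the 37 genes was 0.06, with a range of −0.67 to 0.51, and the median over all named genes was 0.01. Of the 37, 20 had the higher value in the knockout array, 15 the lower value and 2 equal values, and 50.7% of all named genes had the higher value there. The olfactory receptor genes, in whose range 25 of the 37 lay, had a median difference of 0.05, and 586 of 1015 had the higher value.

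**Figure D3:**
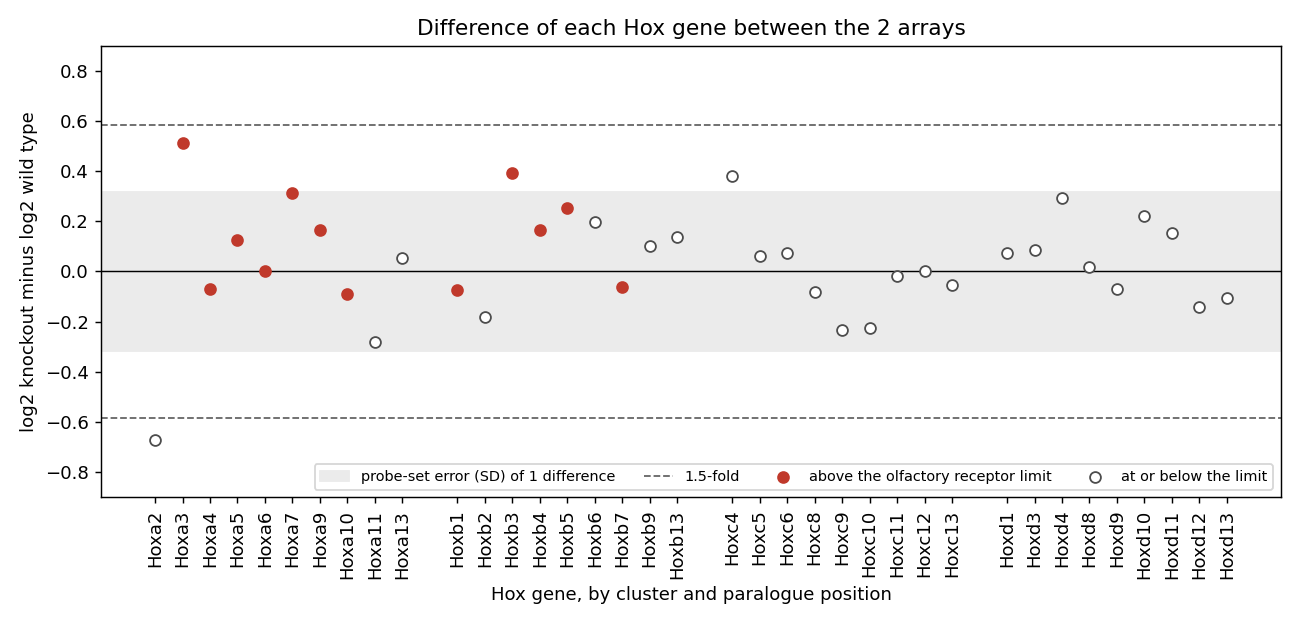
Log2 knockout minus log2 wild-type value (vertical axis) for each of the 37 Hox genes in cluster and position order (horizontal axis), filled where the mean signal exceeded the limit, with the probe-set error of 0.32 as a grey band and 1.5-fold as dashed lines. Hoxa2 alone passes a dashed line, at −0.67, and 4 genes lie outside the band. The band was estimated from genes above the limit.

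The gene past 1.5-fold was Hoxa2, which patterns the hindbrain and the second pharyngeal arch. It read 5.40 in knockout cells, against 6.07 in wild-type cells, a difference of −0.67, or 1.59-fold lower. Both values lay below the signal limit, where the size of a difference is less sure. Among the 500 named genes of nearest signal, 2.60% had a lower difference than Hoxa2. Hoxb2, at the same position in cluster B, also had the lower value in the knockout array, with a difference of −0.18.

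On the higher side, Hoxa3 differed by 0.51, or 1.43-fold. Hoxb3 differed by 0.39 and Hoxc4 by 0.38, and Hoxc4 lay in the olfactory receptor range. These 3 genes and Hoxa2 were the 4 of 37 whose difference exceeded the probe-set error of 0.32. That error came from genes above the limit, and Hoxa2 and Hoxc4 lay below it. At 0.32, 1620 of 19938 named genes were higher and 2120 lower, so the 4 were no more than the background share. The robust estimate of 0.18 was exceeded by 13 of the 37, and the share over all genes was not counted. None of the 37 fell outside the middle 95% of the 500 genes of nearest signal, whose differences had SDs between 0.19 and 0.38. In the GRCm38.p6 annotation the span of Hoxa3 overlaps those of Hoxa4, Hoxa5 and Hoxa6, and the span of Hoxb3 overlaps that of Hoxb4. Which of the overlapping transcripts the probes of Hoxa3 and Hoxb3 read was not examined here. Of the genes whose spans overlap that of Hoxa3, Hoxa4 differed by −0.07, Hoxa5 by 0.13 and Hoxa6 by 0.00.

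Among the 12 genes with signal, differences ran from −0.09 to 0.51 with a median of 0.15. In these 12, 7 had the higher value in the knockout array, 4 the lower and 1 was equal; quantile normalization and loess put Hoxa6 above 0, giving 8 and 4, and median centring put it below 0, giving 7 and 5. For the 7261 other genes in the same range of signal the median was −0.02, and 47.2% of the 11566 named genes above the limit had the higher value in the knockout array. By cluster, the median of the genes with signal was 0.13 over 7 genes of cluster A and 0.17 over 5 genes of cluster B. The error of these medians was not estimated. With 1 array per genotype, the difference between the 12 genes and other genes was not tested.

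The differences were also read by cluster over all members. Cluster A had a median of 0.03, cluster B of 0.14, cluster C of −0.02 and cluster D of 0.07. By position, the genes at positions 1 to 3 had a median of 0.07, those at 4 to 8 of 0.10 and those at 9 to 13 of −0.04. All 3 measured genes of position 3 had the higher value in the knockout array, at 0.51 for Hoxa3, 0.39 for Hoxb3 and 0.09 for Hoxd3. The same held for position 5, with 0.13 for Hoxa5, 0.25 for Hoxb5 and 0.06 for Hoxc5. Both genes of position 2 had the lower value. With 2 to 4 genes per position these are descriptions, and most of the values lie within the probe-set error.

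Among the posterior genes, which pattern limbs, kidney, skin and the urogenital tract, differences were small, with a median of −0.04. Of 16 genes at positions 9 to 13, 9 had the lower value and 6 the higher value in the knockout array. Over all named genes, 9350 of 19938 had the lower value, so this count lay near the background. Within clusters A and B, 2 of 6 posterior genes had the lower value and 4 the higher, with a median of 0.08. The lowest was Hoxa11, at 4.81 in knockout cells, against 5.09 in wild-type cells, a difference of −0.28. Hoxc9 and Hoxc10 differed by −0.23 each, and Hoxd10 by 0.22. Apart from Hoxa9 and Hoxa10, all of these genes lay below the signal limit.

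Of the RNA genes that lie inside the clusters, Mir196b was the 1 past 1.5-fold. It encodes a microRNA between Hoxa9 and Hoxa10 in annotation order, and microRNAs of the miR-196 family are known to act on Hox transcripts. Mature sequences from RefSeq (GRCm38.p6) are given for the families inside the clusters because they show which loci share a seed; capitals mark the seed, bases 2 to 8.
mmu-miR-196b-5p (chr6:52230129-52230150, minus strand): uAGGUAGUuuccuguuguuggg
mmu-miR-196a-5p (chr11:96265187-96265208 and chr15:102973365-102973386, plus strand): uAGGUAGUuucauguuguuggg
mmu-miR-10a-5p (chr11:96317186-96317208, plus strand): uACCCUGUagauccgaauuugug
mmu-miR-10b-5p (chr2:74726074-74726096, plus strand): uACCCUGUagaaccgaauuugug
The miR-196 sequences share their seed and differ at 1 base, A12C from miR-196a to miR-196b, counted from the 5′ end. The miR-10 sequences likewise differ by U12A from miR-10a to miR-10b.

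The probe set of Mir196b read 7.28 in knockout cells, against 6.23 in wild-type cells, a difference of 1.05, or 2.07-fold higher. The genes on either side did not show a difference of that size, with 0.16 for Hoxa9 and −0.09 for Hoxa10. Among the 500 named genes of nearest signal, 99.2% had a lower difference. Of 291 microRNA genes on the array, 10 were higher by 2-fold or more in the knockout array, or 3.44%, and 4 were lower by that size, or 1.37%. Of the 94 microRNA genes above the signal limit, 7 were higher and 0 lower by 2-fold or more. The set of all microRNA genes was drawn up after the value of Mir196b was seen. The value does not tell mature microRNA from precursor, and the difference has no replicate.

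The other microRNA loci of the clusters had low values on both arrays. Mir10a, Mir10b, Mir196a-1 and Mir196a-2 lay between 3.01 and 4.33 in knockout cells, against 3.12 and 4.07 in wild-type cells. Their differences were −0.11, −0.03, −0.11 and 0.26, in that order. The long RNA Hottip, next to Hoxa13, read 5.83 in knockout cells, against 5.82 in wild-type cells. Hoxd3os1, Evx1 and Skap1 also had means below the limit, and Evx2 read 6.21 in knockout cells, against 6.14 in wild-type cells. Skap2, the adaptor gene beside cluster A, read 9.67 in knockout cells, against 10.04 in wild-type cells, a difference of −0.38. Over the 11 measured genes of this list, 1 was higher and 0 were lower by 1.5-fold or more. The shares over all named genes were 1.74% and 3.15%, in that order.

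Of 10 measured TALE genes, partners of HOX proteins, 0 were at least 1.5-fold higher or lower, and their median difference was −0.10. With 1.74% of all named genes higher and 3.15% lower by that size, this count lay near the background. Meis1, the partner that acts with HOXA9 in stem cells and leukaemia, read 11.09 in knockout cells, against 10.74 in wild-type cells, a difference of 0.35. Among the 500 genes of nearest signal, 97.8% had a lower difference than Meis1. Pbx2 read 8.07 in knockout cells, against 8.44 in wild-type cells, a difference of −0.38. Pbx3 lay below the signal limit and read 5.99 in knockout cells, against 6.13 in wild-type cells.

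Genes that maintain Hox transcription were measured for 16 of 16 listed, all with signal, and 0 passed 1.5-fold in either direction. This count too lay near the background of 1.74% higher and 3.15% lower over all named genes. Kmt2a, which encodes MLL, read 10.29 in knockout cells, against 10.23 in wild-type cells. Men1, which encodes menin, read 8.75 in knockout cells, against 8.94 in wild-type cells. Mllt1, a subunit of the elongation complexes that MLL fusions recruit, read 7.13 in knockout cells, against 7.70 in wild-type cells, a difference of −0.57, just short of 1.5-fold. Aff1 and Aff4, scaffold genes of the same complexes, differed by −0.40 and −0.315. The median of the 16 was 0.01, with 8 higher and 8 lower; median centring moved the median below 0.

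Of the Polycomb genes, 16 of 17 listed were measured and 1 passed 1.5-fold. The shares over all named genes were 1.74% higher and 3.15% lower by that size. Cbx7, a chromobox subunit that binds the repressive histone mark, read 6.96 in knockout cells, against 7.61 in wild-type cells, a difference of −0.65, or 1.57-fold lower. Cbx8, a second chromobox subunit, read 7.49 in knockout cells, against 8.00 in wild-type cells, a difference of −0.51. The methyltransferase Ezh1 read 8.33 in knockout cells, against 8.86 in wild-type cells, a difference of −0.53. On the higher side, Phc3 differed by 0.40, Ring1 by 0.28 and Asxl1 by 0.27. Among the 500 genes of nearest signal, 97.6% had a lower difference than Phc3. Ezh2, the methyltransferase of dividing cells, differed by 0.18, with Suz12 at 0.21, Eed at 0.24 and Cbx2 at 0.21. Bmi1, which stem cells need for self-renewal, read 7.98 in knockout cells, against 8.27 in wild-type cells. The median of the list was 0.08, with 9 genes higher and 6 lower.

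Of the caudal genes, which turn on Hox genes in the embryo, Cdx1 read 6.86 in knockout cells, against 6.84 in wild-type cells. Cdx2 and Cdx4 had means below the signal limit, and Cdx4 had the same value of 3.72 in both arrays. Of 8 genes that HOX and MEIS proteins are known to regulate or work with in stem cells, 0 passed 1.5-fold. That lay near the background of 1.74% higher and 3.15% lower over all named genes. Among them Kit differed by 0.28, Erg by 0.22, Cd34 by 0.14, Flt3 by 0.10, Hlf by −0.03, Myb by −0.05, Sox4 by −0.29 and Mecom by −0.45.

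**Figure D4:**
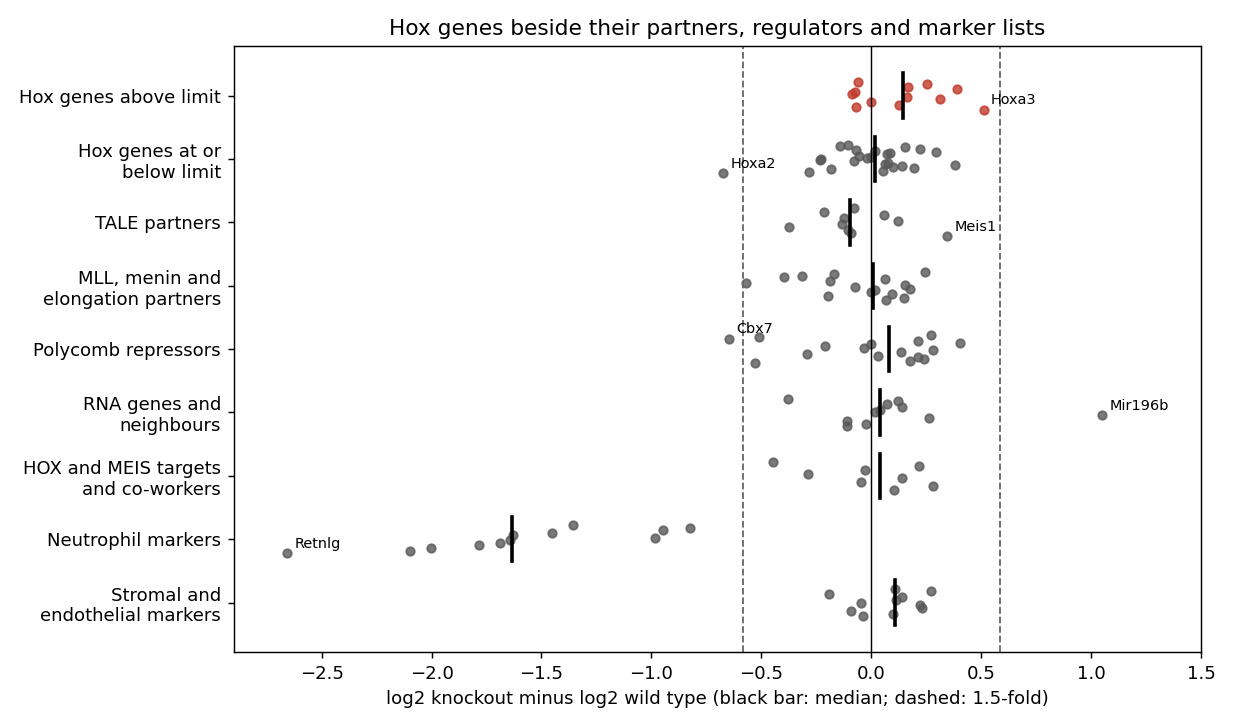
Log2 knockout minus log2 wild-type value (horizontal axis) of each gene in 9 lists (1 row each, Hox genes on top), with the median as a black bar and 1.5-fold as dashed lines. The Hox, partner and regulator rows centre near 0, Mir196b stands at 1.05, Cbx7 at −0.65, and the neutrophil row has a median of −1.63.

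Other marrow cells could add Hox transcripts to the pools. Of 11 measured stromal and endothelial markers, 0 passed 1.5-fold, with a median difference of 0.11. The shares over all named genes were 1.74% higher and 3.15% lower, so this count lay near the background. In that list Prrx1, Lepr, Cdh5, Kdr and Acta2 had means below the limit, and the 11 values ran from 3.83 to 7.90 in knockout cells, against 3.61 to 8.10 in wild-type cells. The 12 neutrophil markers ran from 5.36 to 11.30 in knockout cells, against 6.69 to 12.25 in wild-type cells, with 0 of 12 higher. The part of either cell type in the Hox values was not tested.

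Promoters were searched for the antioxidant response element that NRF2 binds, written TGACNNNGC and its reverse GCNNNGTCA, which do not overlap any other motif searched. The RefSeq windows run from 250 bases before to 50 after an annotated start. They covered 22 Hox genes in 24 windows, 21 of the 22 being measured. The motif was in 2 of 24 Hox windows, or 8.33%, against 12.4% of 32851 windows of all genes. The windows holding it are shown because they are the Hox promoters with a match, and that of Hoxa9, a gene with strong signal and no match, is shown beside them; capitals mark the motif.
Hoxa6 (GRCm38.p6, chr6:52208623-52208922, minus strand): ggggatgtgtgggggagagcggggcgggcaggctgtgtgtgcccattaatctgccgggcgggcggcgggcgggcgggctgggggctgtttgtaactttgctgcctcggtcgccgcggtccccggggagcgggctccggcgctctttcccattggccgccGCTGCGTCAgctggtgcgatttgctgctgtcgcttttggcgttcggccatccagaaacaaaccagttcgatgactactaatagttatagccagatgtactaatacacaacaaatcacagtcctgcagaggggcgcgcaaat
Hoxd10 (GRCm38.p6, chr2:74691641-74691940, plus strand): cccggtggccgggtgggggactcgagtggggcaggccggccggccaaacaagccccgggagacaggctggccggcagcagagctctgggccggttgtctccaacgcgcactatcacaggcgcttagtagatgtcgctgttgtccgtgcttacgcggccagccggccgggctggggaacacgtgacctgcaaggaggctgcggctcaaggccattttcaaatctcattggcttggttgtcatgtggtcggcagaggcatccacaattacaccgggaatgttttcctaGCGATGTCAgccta
Hoxa9 (GRCm38.p6, chr6:52227321-52227620, minus strand): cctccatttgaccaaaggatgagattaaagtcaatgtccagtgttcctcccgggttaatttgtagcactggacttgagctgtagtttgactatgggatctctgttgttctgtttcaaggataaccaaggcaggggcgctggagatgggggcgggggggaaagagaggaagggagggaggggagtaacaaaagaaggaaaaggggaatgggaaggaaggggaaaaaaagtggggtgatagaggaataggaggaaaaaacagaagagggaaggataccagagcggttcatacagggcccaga
The match lay 91 bases before the start of Hoxa6 and 36 bases after that of Hoxd10, on the reverse strand in both. Hoxa6 had equal values in both arrays, and Hoxd10 differed by 0.22 below the signal limit. A match describes letters in the window and is not shown to be a binding site.

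Hox promoter windows were rich in CpG dinucleotides. Their median was 14.5 CpG per 300 bases, against 7 over all windows. The 9 windows of genes with signal had a median of 14 and the 14 windows of measured genes without signal a median of 17.5. Windows of both kinds overlapped in range, with 4 to 29 CpG for genes with signal and 4 to 45 for those without. The Hoxa9 window held 4 CpG and the Hoxa5 window 29, although both genes had strong signal.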

How the data were processed

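Total RNA of KSL cells (Qiagen RNeasy micro kit) was amplified and labelled with NuGEN Ovation kits, per the labels' protocols, which can compress differences of single genes. It was hybridised to Affymetrix Mouse Gene ST 1.0 arrays. Each deposited value is the log2 intensity of 1 probe set on 1 array; Partek is named in the submitters' processing notes, and no source used here states the background correction or normalization. The log base was taken from the values, which reach 13.8. The sorted values of both arrays differ by at most 0.0866, so a shift of all genes could not be seen.

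Of 28853 probe sets, 21789 had 1 gene symbol and were averaged per gene, and 1621 with several were left out. All 37 Hox symbols matched the GRCm38.p6 annotation by Entrez ID. Genes were counted at 1.5-fold, with no test. Alternatives were 3 normalizations, other folds, other signal limits, means, and the probe set of highest mean. Named were Hox genes with signal or past 1.5-fold, list genes past 1.5-fold and Meis1, Pbx3, Kmt2a, Men1, Bmi1, Ezh2 and Cdx4; other named genes were chosen after their values were seen. The members and lists were chosen with earlier results of these data known. On simulated data without noise, planted differences of probe sets were recovered. The counting and signal limit steps were not tested this way. Protein sequences were not used here. An array has no read depth, and the number of arrays limits the precision. Computation used Python 3.11.15, numpy 2.4.6, pandas 2.3.3 and statsmodels 0.14.6.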

Additional observations from a re-analysis of the deposited data

How the results depend on the processing

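No paired analysis was possible because each genotype had 1 array. Of 317 values computed under alternatives, 305 stayed within a set size, 12 moved further, and no value past 1.5-fold changed sign. The 305 include the choice among probe sets for genes with 1 probe set, where the value could not move. The tally therefore overstates how many alternatives could have changed a value. The set size was the probe-set error, divided for medians by the square root of the number of genes. For counts it was a change of at most 1.5 times. In 14 of the 317 the sign differed from that of the reported value or the reported value was 0, all between −0.04 and 0.04. Scaling moved no Hox difference by more than 0.0556, and the sign was not constant for 3 genes near 0, Hoxa6, Hoxc12 and Hoxd8. At a smaller size, 0.32 on the log2 scale, the counts of higher genes were 3 Hox, 1 TALE, 1 Polycomb and 1 cluster RNA gene. The lower genes were 1 Hox, 1 TALE, 2 MLL and elongation, 3 Polycomb, 1 cluster neighbour and 1 HOX target gene. Of 19938 named genes, 1620 were higher and 2120 lower at this size, so the Hox counts were near or below the background. At 2-fold, the counts of lower Hox and Polycomb genes were 0 each. A limit at the 75th percentile over all genes, 8.07, left 2 Hox genes with signal, and one at the median over all genes, 6.57, left 11. The median of the genes at positions 1 to 3 was 0.39 over those with signal alone, and that of positions 9 to 13 was 0.04 in place of −0.04, since fewer genes entered. The median over all 37 Hox genes ran from 0.01 to 0.06 over the normalizations, and over the 12 with signal it ran from 0.14 to 0.17. Each Hox gene has 1 probe set, so the choice among probe sets could not move it. The normalizations of list medians and of 6 single genes outside the Hox clusters' protein-coding members (Mir196b, Meis1, Cbx7, Mllt1, Ezh1 and Cbx8) were added after seeing the data. With 1 array per genotype no replicate could be left out.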

Other observations

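Exactly equal values on both arrays were not limited to Hoxa6 and Hoxc12: 474 of 19938 named genes had the same value to the last deposited digit, Phc2 and Cdx4 among them. Slamf1, a stem cell surface marker of the KSL list, read 6.43 in knockout cells, against 5.73 in wild-type cells, a difference of 0.71, with a mean below the signal limit. Of 6 KSL markers measured it was the 1 past 1.5-fold, against 1.74% of all named genes higher and 3.15% lower by that size.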
